A study of Arabidopsis thaliana with 6 samples.

Results

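The protein-coding genes of the Arabidopsis mitochondrial genome were compared between leaf and callus. They were taken as the probe sets that the platform's gene table assigns to a single gene of the mitochondrial genome, with the brightest probe set kept where a gene had several. This rule gave 16 genes on 23 probe sets, of 13356 named genes on the array. RefSeq lists 32 protein-coding gene symbols for this genome. Of these, 11 appeared only on probe sets that the table shares with another gene, and 5 were on no probe set named here. The 16 genes encode 8 subunits of complex I (nad1, nad2, nad4, nad4L, nad5, nad6, nad7 and nad9), 2 of complex IV (cox1 and cox2), 4 proteins of cytochrome c maturation (ccmB, ccmFC, ccmFN1 and ccmFN2), the maturase matR and the translocase mttB.

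Both tissues were wild type of the Col-0 background. Leaf RNA came from 20-day-old seedlings. Callus RNA came from calli that had grown from leaf blades of that age during 20 days on callus-inducing medium (CIM), which holds the auxin 2,4-D, the cytokinin kinetin and glucose. The effects of organ, hormones, medium, wounding by detachment and culture time therefore cannot be told apart. By the study's methods explants on CIM were kept in the dark, but the labels name a daily light period for callus and leaf alike, so the light the calli received is not settled. Each group had 3 arrays from independent experiments. Whole organs or calli were extracted, so fewer cells of a type and less RNA per cell cannot be told apart in these values.

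Plant mitochondria keep a small genome of their own. Its proteins are mainly subunits of the respiratory chain and the ATP synthase, ribosomal proteins, and enzymes that attach heme to cytochrome c. Most subunits of the same complexes are encoded in the nucleus and imported, so each complex is built from the products of both genomes. Mitochondrial mRNAs pass through intron splicing and C-to-U editing. The transcripts of nad1, nad2 and nad5 are joined from separately transcribed pieces by trans-splicing. In plant mitochondria a poly-A tail mostly marks an RNA for decay, and most mature mRNAs carry no stable tail. The RNA was primed with oligo(dT), so that the values report the part of each transcript pool that this primer could reach.

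The arrays were alike within each tissue. Array medians over all probe sets lay between 5.79 and 5.96 on the log2 scale, and replicate arrays correlated across genes at 0.9949 or more. All 9 leaf markers were lower in callus and all 6 callus and root-type markers were higher. RNA integrity was read from the actin control, whose 3' probe set exceeded its 5' probe set on the log2 scale by 1.53 ± 0.0549 over the callus arrays and 1.84 ± 0.268 over the leaf arrays (SD, n = 3, two-sided exact permutation p = 0.2, with 0.1 the smallest p possible). The same difference was 0.367 ± 0.0862 and 0.247 ± 0.0654 for GAPDH (exact permutation p = 0.2, n = 3) and -0.0853 ± 0.0340 and -0.0755 ± 0.0725 for ubiquitin (exact permutation p = 1, n = 3). The number of arrays limits the precision of every value.

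Of the 16 mitochondrial genes, 4 rose in callus and 0 fell in the deposited scaling, at a limma adjusted p under 0.05 with more than a 2-fold change, whereas 2 rose and 1 fell once arrays were centred on the reference gene TIP41. The 4 were ccmFN1, cox1, nad5 and nad1, and they belong to cytochrome c maturation, complex IV and complex I. Across all genes tested, 16.4% were called higher in callus by the same rule and 13.2% lower, 29.6% in all. After centring on TIP41, 1257 of the 13356 genes were called higher and 2794 lower. As deposited, the share of mitochondrial genes that rose was 25%. The median log2 fold change (callus over leaf) was 0.36 for the 16 genes and 0.01 for all genes. With the adjusted p alone and no fold threshold, 10 were higher and 1 was lower, against 34.4% higher and 26.7% lower of all genes. All 3 callus arrays lay above all 3 leaf arrays for 10 genes and below them for 1, against 36.7% and 29.4% of all genes.

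**Figure D1:**
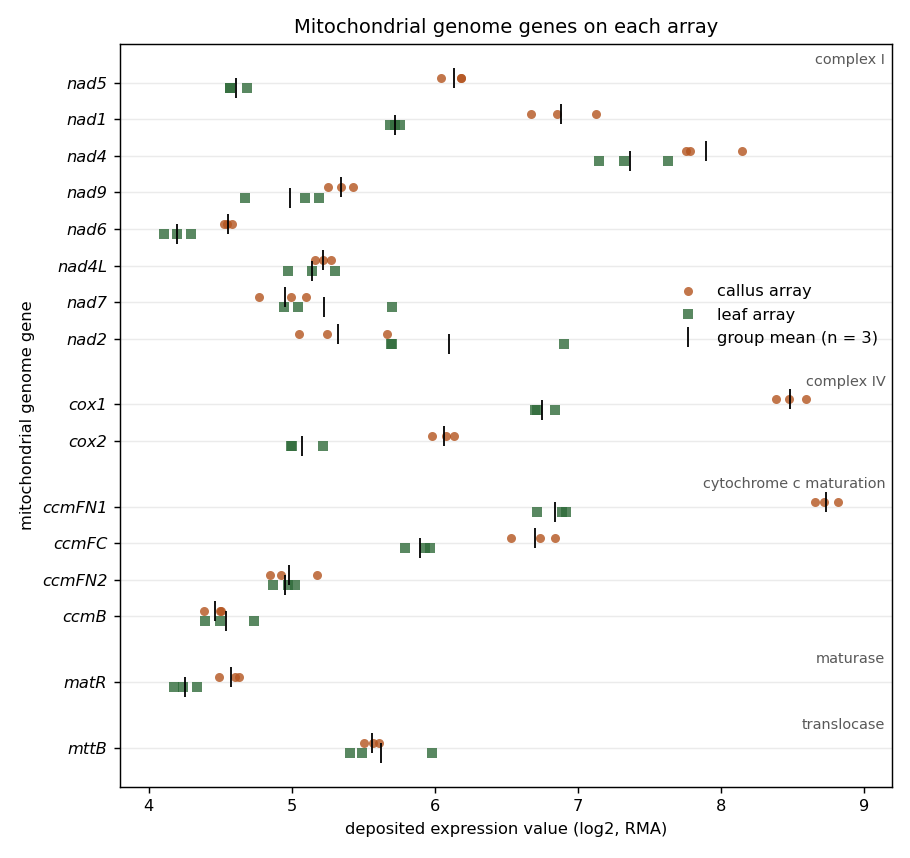
Deposited log2 expression value of each mitochondrial gene (rows, by complex) on each callus array (circles) and leaf array (squares), with group means as vertical bars (n = 3). The callus and leaf points are widest apart for ccmFN1 and cox1, while nad2 is the only gene whose callus points all lie below its leaf points.

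The signs of the smaller differences depended on how arrays were scaled to each other. As deposited, 12 of the 16 log2 fold changes were above 0 and 4 were below. After centring on TIP41, 6 were above 0 and 10 were below, and the median was -0.23. After centring on the poly-A spike controls, 15 were above 0 and the median was 1.02. The median of all genes moved with them, to -0.58 and 0.67. Centring shifts every gene by the same amount, so the gap of 0.35 between the mitochondrial median and that of all genes is fixed by construction. The rises of ccmFN1 and cox1 held under each of the 5 scalings, whereas nad5 and nad1 fell short of 2-fold after centring on TIP41, with log2 fold changes of 0.94 and 0.58.

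The difference was greatest for ccmFN1, listed in the gene table as ccb382, which encodes the N-terminal part of a heme lyase subunit that attaches heme to cytochrome c. Its values were 8.82, 8.72 and 8.66 in callus replicates 1 to 3 and 6.89, 6.92 and 6.72 in leaf. The callus arrays were far above the leaf arrays, and the spread within either tissue was small. The rise was 3.71-fold (log2 fold change 1.89 ± 0.0847 SE, limma adjusted p = 1.03e-11).

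The other 3 maturation genes did not pass the test. ccmFC, the C-terminal part of the same heme lyase subunit, read 6.84, 6.53 and 6.73 in callus and 5.80, 5.93 and 5.97 in leaf. Its groups did not overlap, but the difference of 0.80 ± 0.112 SE on the log2 scale stayed under 2-fold (limma adjusted p = 1.03e-05). ccmFN2 encodes the remaining piece of that subunit, which Arabidopsis keeps as separate genes. Its log2 fold change was 0.03 ± 0.119 SE (limma adjusted p = 0.863). ccmB, a subunit of an ABC transporter in this pathway, read 4.39, 4.50 and 4.51 in callus and 4.74, 4.39 and 4.50 in leaf. These arrays overlapped, and the log2 fold change of -0.08 had an adjusted p of 0.581 from limma. The separately encoded pieces of CcmF therefore gave differences of 1.89, 0.80 and 0.03.

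Complex IV, the cytochrome c oxidase that passes electrons to oxygen, was measured by its catalytic core subunits. cox1, the subunit that holds the oxygen-reducing center, read 8.60, 8.38 and 8.48 in callus and 6.70, 6.72 and 6.84 in leaf. No callus array came near a leaf array. The rise was 3.33-fold (log2 fold change 1.73 ± 0.0858 SE, limma adjusted p = 3.65e-11). cox2, which takes electrons from cytochrome c, read 6.14, 6.08 and 5.98 in callus and 4.995, 5.216 and 5.002 in leaf. Its groups were also well apart, and its change of 1.99-fold lay just below the threshold (log2 fold change 0.99 ± 0.116 SE, limma adjusted p = 1.33e-06). It passed when callus replicate 3 or leaf replicate 2 was left out, at log2 fold changes of 1.04 and 1.07. The nearest gene inside the threshold was nad1, at 2.24-fold.

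**Figure D2:**
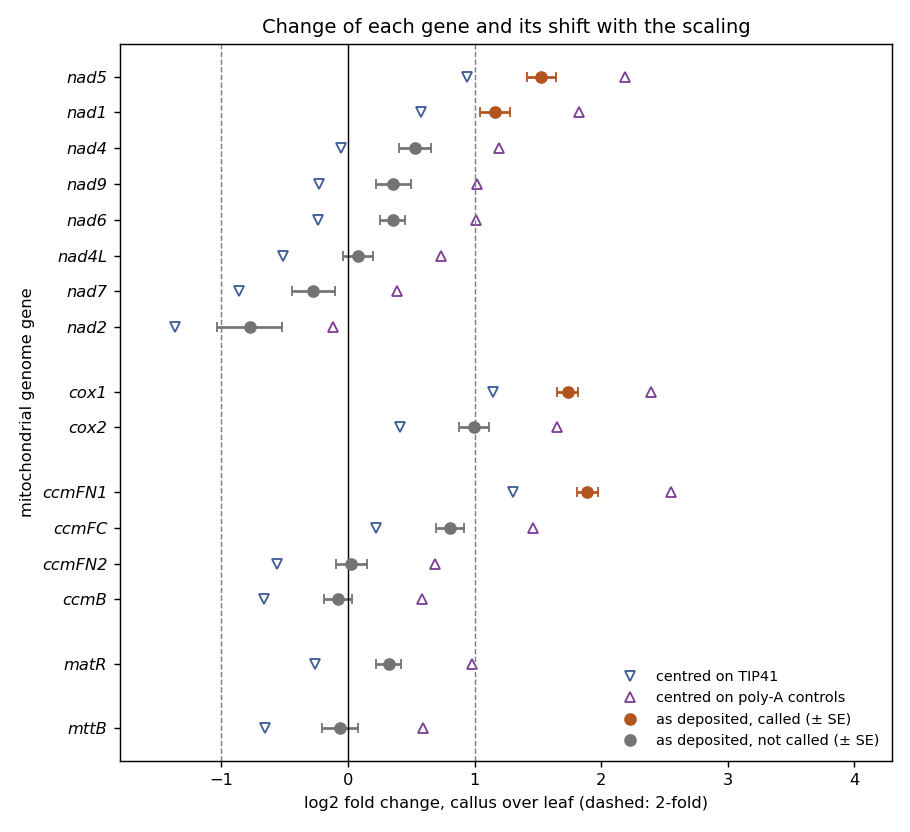
Log2 fold change, callus over leaf, of each mitochondrial gene by complex, as deposited (circles, ± moderated SE from limma) and after centring on TIP41 (triangles down) or the poly-A controls (triangles up), with dashed 2-fold lines. As deposited, ccmFN1, cox1, nad5 and nad1 lie past the line and cox2 sits at it, and centring shifts every gene by the same amount.

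Complex I, the NADH dehydrogenase, was represented by the most genes. Of its 8 measured mitochondrial subunits, 2 rose and 0 fell, against 16.4% and 13.2% of all genes. The log2 fold changes of the 8 ran from -0.78 to 1.53 with a median of 0.36. nad5, a proton-pumping subunit of the membrane arm, read 6.05, 6.18 and 6.18 in callus and 4.57, 4.57 and 4.68 in leaf. Its callus arrays formed a tight group above the leaf arrays. The rise was 2.88-fold (log2 fold change 1.53 ± 0.111 SE, limma adjusted p = 4.83e-09). nad1, the membrane subunit next to the quinone site, read 6.67, 7.13 and 6.86 in callus and 5.69, 5.72 and 5.76 in leaf. The leaf arrays were nearly equal and the callus arrays more spread, with no overlap. Its rise was 2.24-fold (log2 fold change 1.16 ± 0.120 SE, limma adjusted p = 3.47e-07).

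nad2, another proton-pumping subunit, had the lowest log2 fold change of the 16 genes. It read 5.05, 5.25 and 5.67 in callus and 6.90, 5.71 and 5.70 in leaf. Leaf replicate 1 lay far above the other leaf arrays, and the highest callus array lay just under the lowest leaf array. The log2 fold change was -0.78 ± 0.254 SE (limma adjusted p = 0.0148), which is under 2-fold. Without leaf replicate 1 it was -0.38, with a limma adjusted p of 0.0486, and without callus replicate 1 the adjusted p was 0.0684. Under centring on TIP41 the value was -1.36 and passed the 2-fold rule.

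Leaf replicate 1 was also the highest leaf array for nad7, a subunit of the arm that binds quinone, at 5.70 against 5.04 and 4.94. The callus values of nad7, 4.77, 4.99 and 5.10, overlapped those of leaf, and its log2 fold change was -0.27 (limma adjusted p = 0.187). The same array was highest for mttB, a membrane subunit of a Tat-type protein translocase, at 5.98 against 5.41 and 5.49. The callus values of mttB were 5.61, 5.51 and 5.57, and its log2 fold change was -0.06 (limma adjusted p = 0.733). In all, leaf replicate 1 was the highest leaf array for 8 of the 16 genes, and over all genes it was highest for 35.0%. Callus replicate 1 was the highest callus array for 8 of the 16 genes and the lowest for the other 8. Over all genes, callus replicate 1 was the highest callus array for 30.0%. The actin difference of leaf replicate 1 was 1.57, against 2.11 and 1.84 on the other leaf arrays, and the part of RNA integrity in these values was not tested.

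The remaining complex I subunits differed less. nad4, a proton-pumping subunit, read 8.15, 7.78 and 7.76 in callus and 7.63, 7.15 and 7.32 in leaf, without overlap. Its log2 fold change was 0.53 ± 0.125 SE (limma adjusted p = 0.00153). nad6, a small membrane subunit, stood at 0.35 (limma adjusted p = 0.00471). nad9, of the peripheral arm, stood at 0.36 (limma adjusted p = 0.0341), and at 0.20 without leaf replicate 1 (limma adjusted p = 0.159). nad4L, another small membrane subunit, stood at 0.08, with overlapping arrays (limma adjusted p = 0.607).

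matR encodes a maturase that takes part in splicing of mitochondrial introns and lies inside an intron of nad1. It read 4.63, 4.49 and 4.61 in callus and 4.34, 4.18 and 4.24 in leaf. The groups were separate, at a log2 fold change of 0.32 (limma adjusted p = 0.00953). The host gene nad1 stood at 1.16 on its brightest probe set and at 0.34 on the mean of its probe sets.

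nad1 was the gene with the most probe sets, and these did not move together. Its 7 probe sets gave log2 fold changes from -0.35 to 1.16, and 2 of them were called higher. The kept probe set, 257324_at, was joined by 257325_at, with group means of 6.27 in callus and 5.21 in leaf and a log2 fold change of 1.06. Of the other 5, 257321_at and 257323_at stood at 0.36 and 0.37, and 257323_at lay below the first quartile of genes on all 6 arrays. The probe sets 257327_at and 257329_at stood at -0.07 and -0.12. 257322_at lay lower in callus, at -0.35 (limma adjusted p = 0.0467), with callus values of 4.77, 5.01 and 5.09 and leaf values of 5.09, 5.61 and 5.22. When the 7 probe sets were averaged, nad1 had a log2 fold change of 0.34 and was no longer called. Which exon or intron each probe set covers is not given in the sources used here.

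For nad5, both probe sets were called higher, at log2 fold changes of 1.53 and 1.02. The second one read 5.42, 5.11 and 5.53 in callus and 4.50, 4.31 and 4.18 in leaf, again without overlap. The kept probe sets of nad5, nad6, ccmFC, matR and mttB carry the platform's suffix for probes that may match several transcripts, so their signal may not come from a single gene.

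**Figure D3:**
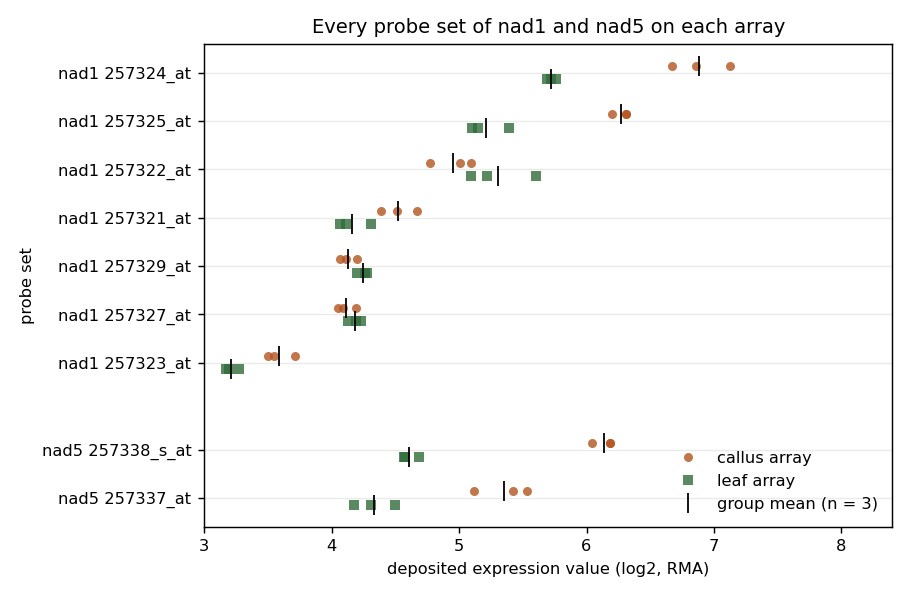
Deposited log2 expression value of every probe set of nad1 (7) and nad5 (2) on each callus array (circles) and leaf array (squares), with group means as vertical bars (n = 3). Of the nad1 probe sets, 257324_at and 257325_at have callus means more than 2-fold above leaf, as do both of nad5.

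The 4 genes that rose were mostly among the brighter ones, although brightness of different probe sets is not a measure of their relative transcript levels. Of the 6 mitochondrial genes at or above the median gene of the array, 3 rose and the median log2 fold change was 0.98. Of the 10 below it, 1 rose (nad5) and the median was 0.20. Calls were also more frequent among bright genes in general, with 26.2% of all genes at or above the median called higher and 6.63% of those below it. The SD between replicates was similar for the mitochondrial genes and all genes, with medians of 0.0834 and 0.0867 in callus and 0.118 and 0.103 in leaf.

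Differences between neighbors on the mitochondrial genome were both near and far apart. Each gene was placed once, by its first start position, although nad1, nad2 and nad5 are transcribed in separate pieces. The neighbors given for these genes therefore hold for 1 position only, and matR is listed apart from its host nad1. In this RefSeq gene order, nad5 is listed between matR and nad7, and its log2 fold change of 1.53 stood beside 0.32 and -0.27. ccmFC, nad4 and mttB follow one another with 0.80, 0.53 and -0.06, and cox2 and ccmB with 0.99 and -0.08. nad2 and nad6 gave -0.78 and 0.35, and nad1 and cox1 gave 1.16 and 1.73, both called higher. No test of position was made.

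The plastid genome, the other organelle genome in these cells, is transcribed and translated in chloroplasts and other plastids and gave decreases. Of 69 plastid genes, 0 rose and 54 fell (78.3%), with a median log2 fold change of -2.56, against 0 of 16 mitochondrial genes that fell. Among 43 plastid photosynthesis genes, 39 fell, and the median was -3.16. The largest decreases were in psbA, the photosystem II reaction center protein (log2 fold change -5.80), psaB of photosystem I (-5.57) and ndhJ of the chloroplast NDH complex (-5.37). Of 26 other plastid genes, 15 fell with a median of -1.28. They were led by ccsA, which serves cytochrome c synthesis in chloroplasts (-5.01), rpl33 (-3.57) and rps4 (-3.42), both ribosomal proteins. Each of these 6 genes remained lower after centring on TIP41 or on the poly-A controls. The leaf markers of photosynthesis fell with them, at log2 fold changes down to -8.77.

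Nuclear genes for mitochondrial proteins were examined in 12 lists of 251 loci, of which 91 were measured. Of these 91, 22 rose and 1 fell, with a median log2 fold change of 0.50. The share that rose was 24.2%, against 16.4% of all genes. Most of these genes were bright, however. With genes below the median level left out, 81 of them were tested and 21 rose, and of all genes at or above that level 26.2% were called higher. After centring on TIP41 the calls became 10 higher and 5 lower, against 1257 higher and 2794 lower among the 13356 genes. For complex I, whose mitochondrial subunits nad5 and nad1 rose, none of the 23 nuclear subunits was called by limma as deposited. After centring on the poly-A controls 9 were called higher, against 4121 of all 13356 genes. With the hybridization controls 1 was called higher, against 2781 of all genes. As deposited, the log2 fold changes of these 23 subunits lay between -0.36 and 0.82 with a median of 0.27. With the adjusted p alone, 15 of the 23 were higher and 4 were lower, against 34.4% and 26.7% of all genes.

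The other respiratory complexes had between 1 and 3 nuclear members that rose. These counts are to be read against the 16.4% of all genes called higher, and 26.2% of those at or above the median level. In complex II, which has no mitochondrially encoded member here, 1 of 4 rose, SDH1-1, the flavoprotein subunit of succinate dehydrogenase (log2 fold change 1.96). In complex III and cytochrome c, 3 of 13 rose, namely AT5G25450 (2.01), AT1G51980 (1.36) and MPPBETA (1.11), the last a subunit that also acts as the mitochondrial processing peptidase. For complex IV, where cox1 rose, the 8 nuclear genes included 1 that rose, AT5G61310 (1.89), and 1 that fell, AT5G57815 (-1.82). In the ATP synthase 2 of 5 rose, AT4G26210 (1.59) and AT1G51650 (1.06), and the latter was not called without leaf replicate 2 (0.97). Among 5 measured genes of alternative respiration, of 14 listed, 2 rose, both NAD(P)H dehydrogenases that bypass complex I, NDB4 (1.98) and NDB2 (1.35). The others measured were NDB1, NDB3 and NDC1, so no alternative oxidase was among them.

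Among genes that act on mitochondrial gene expression, 3 of 10 on a list for RNA metabolism rose. It was drawn up from general knowledge for synthesis, splicing and editing, and the step at which each gene acts was not checked. The counts as deposited in this paragraph are to be read against 16.4% of all genes called higher, and 26.2% of those at or above the median level. The largest change was in PPR336, a pentatricopeptide repeat protein, at 11.2-fold (log2 fold change 3.48), followed by AT5G14580 (1.90) and AT5G46920 (1.48). Of 5 nuclear genes for mitochondrial ribosomal proteins 3 rose, namely HLL (HUELLENLOS) at 6.25-fold (log2 fold change 2.64), AT3G49080 (2.27) and AT2G44065 (1.92). The median of these 5 was 1.92, and all 5 had callus arrays above leaf arrays, as had 36.7% of all genes. In the TCA cycle and pyruvate dehydrogenase, which feed electrons to the chain, 7 of 15 rose with a median of 0.95, led by AT5G23250 (2.001), AT5G65750 (1.40) and AT5G55070 (1.24). This count was 1 of 15 after centring on TIP41, 4 on the median nuclear gene and 12 on the poly-A controls. Among all 13356 genes, 1257, 1967 and 4121 were called higher under these scalings. The single measured genes for DNA maintenance, import and nuclear-encoded cytochrome c maturation were not called, at 0.62, 0.85 and -0.47. Of the nuclear genes named here, AT1G51980, MPPBETA, AT4G26210, AT1G51650, NDB2, AT5G46920, AT5G65750 and AT5G55070 fell short of 2-fold after centring on TIP41. The differences between these lists and the mitochondrial genes were not tested.

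**Figure D4:**
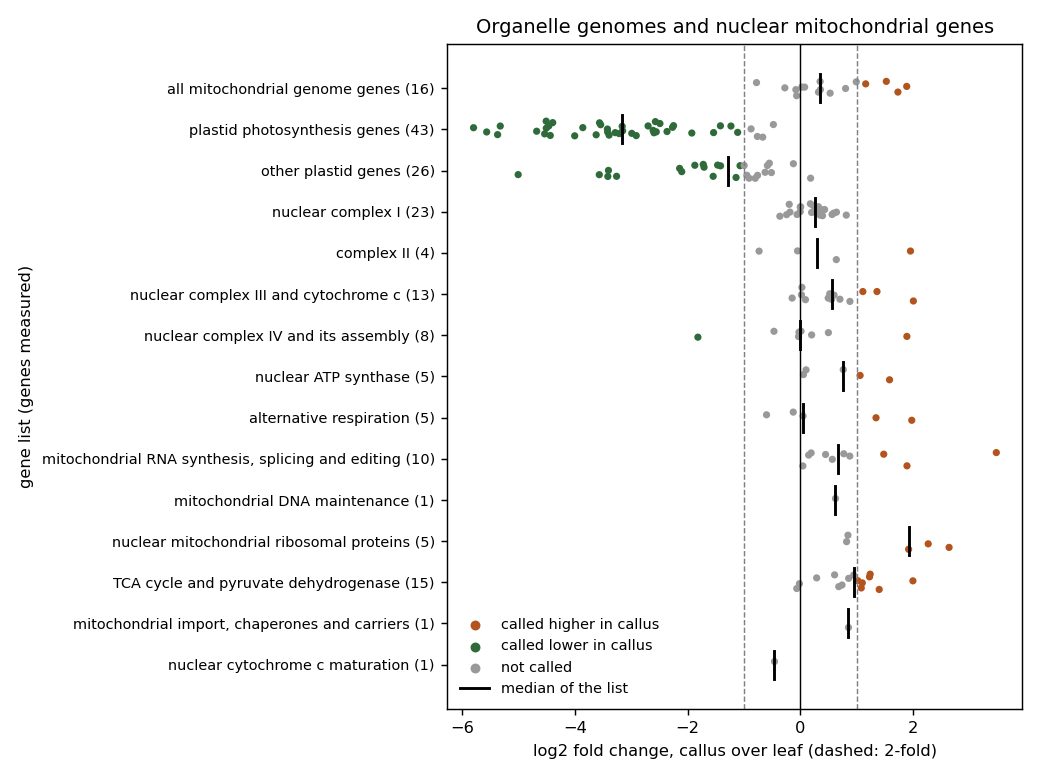
Log2 fold change, callus over leaf, of every measured gene (points) in the mitochondrial and plastid genomes and in 12 lists of nuclear genes for mitochondrial proteins, with the list median as a bar and dashed 2-fold lines. The plastid genes reach -5.80, the 16 mitochondrial genes lie between -0.78 and 1.89, and the 23 nuclear complex I genes stay inside the 2-fold lines.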

How the data were processed

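The authors deposited log2 expression values for each probe set on 6 arrays of total RNA (3 callus, 3 leaf). Partek and RMA (background correction, quantile normalization between arrays and probe summary) are named in the submitters' processing notes, with versions and chip description not given in the sources used here. Changes in total RNA per cell are hidden by this normalization. Of 22810 probe sets 64 were controls, 13513 had 1 gene, 503 several and 8730 none listed. The table held 0 further columns of values. Probe sets with several genes were left out of the gene fit. Symbols came from the platform's gene table, updated through RefSeq (TAIR10.1). A match to a mitochondrial entry there was required of the 16 mitochondrial genes, so that all of them matched by construction. There were 54 genes that matched no entry and were assigned to no genome. This assembly was used for names, the assignment of genes to a genome and gene order alone.

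The 13356 genes were fitted together with lmFit and trended eBayes of limma 3.58.1 (R 4.3.3), callus against leaf. P-values were adjusted by Benjamini-Hochberg. Probe sets of 1 gene were also fitted separately. Genes were called at an adjusted p under 0.05 and more than 2-fold. The 2-fold threshold is that of the study's methods, which name no test and no adjustment of p-values. The fit was tested on simulated data. Members and gene lists were chosen with earlier results of these data known. All 16 mitochondrial genes were named, with values on every array for the highest and lowest log2 fold change of each complex. Up to 3 called genes per direction were named from each other list. Values on every array for other genes were added after they were seen. Alternatives covered thresholds, moderation, scaling, probe set choice, dim genes, left-out arrays and a replicate block.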

Additional observations from a re-analysis of the deposited data

How the results depend on the processing

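Across 19 alternatives, 251 of 294 single-gene values for the 16 mitochondrial genes kept their direction and side of the 2-fold rule, 20 gained a call, 3 lost one and 20 changed sign, with 0 of the last called in either fit. Alternatives in threshold, moderation, replicate block or genes tested leave each log2 fold change as it was, so no sign could change there. Averaging of probe sets likewise changes nothing for genes with a single probe set. The count of 251 includes such values. The sign changed after centring on TIP41 for nad4 (-0.06), nad9 (-0.23), nad6 (-0.23), nad4L (-0.51), ccmFN2 (-0.56) and matR (-0.26), on the poly-A controls for nad7 (0.39), ccmB (0.58) and mttB (0.60), on the hybridization controls for ccmB (0.18) and mttB (0.20), on the median nuclear gene for nad4L (-0.04) and ccmFN2 (-0.09), and with repeated quantile normalization for nad4L (-0.01) and ccmFN2 (-0.04). It also changed in 5 values with an array left out, of ccmFN2 (without callus replicate 3 or leaf replicate 3, range -0.07 to 0.09 over the 6 arrays), ccmB and mttB (both without leaf replicate 1, ranges -0.15 to 0.02 and -0.17 to 0.11) and nad4L (without leaf replicate 2, range -0.00 to 0.16). Without a fold threshold 8170 genes were called in place of 3958, 11 mitochondrial genes in place of 4, and 70 nuclear genes for mitochondrial proteins in place of 23. At 1.5-fold the counts were 5679 genes, 7 mitochondrial genes and 44 nuclear genes for mitochondrial proteins, of 13356, 16 and 91 tested. The median log2 fold change of the mitochondrial genes, 0.36 as deposited, was 0.62 when arrays were centred on hybridization controls and 1.02 when centred on poly-A controls, with 9 mitochondrial and 54 nuclear genes called under the latter. After centring on TIP41 the median was -0.23, 3 mitochondrial genes were called (ccmFN1 and cox1 higher, nad2 lower), and 15 nuclear genes. Which centring is right was not tested. The split of all called genes was 2193 higher and 1765 lower as deposited, 2781 and 1505 with the hybridization controls, 4121 and 1160 with the poly-A controls, and 1257 and 2794 with TIP41. With probe sets of several genes kept, 9 of 26 mitochondrial entries were called, the median was 0.67, and 6 complexes had a called member in place of 3. With genes below the median level left out, 6 mitochondrial genes were tested, 3 were called and the median was 0.98. This median differs because of which genes were kept, as the 10 left out had a median of 0.20. Leaving out 1 array at a time gave 3921 to 4007 called genes, 4 to 5 mitochondrial genes, a median of 0.36 to 0.39, 3 to 3 complexes with a called member and 22 to 23 nuclear genes. With the replicate number as a block, 3958 genes and 4 mitochondrial genes were called. Same-numbered arrays did not deviate together (correlations of deviations -0.108, 0.0719 and -0.0426), so the numbers were not taken as pairs. RMA values carry no detection call, which limits what can be said of the dimmest probe sets.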

Other observations

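The gene table assigns 12 further probe sets to a mitochondrial gene together with another gene. In 11 of them the other is a nuclear locus on chromosome 2, where the Col-0 genome holds a large copy of mitochondrial DNA, and in 1 both genes are mitochondrial. These probe sets were left out above because their signal belongs to no single gene. They are described by complex alone, after their values were seen. Whether the kept probe sets of the 16 genes also match the chromosome 2 copy was not tested. Of the 12, 5 were called higher in callus and 0 lower, at a median log2 fold change of 0.77, and the callus arrays lay above the leaf arrays in 10. Of all genes, 16.4% were called higher and 36.7% had all callus arrays above all leaf arrays. For ribosomal proteins, a class with no member among the 16 genes, 3 of 6 were called higher, with a range of 0.36 to 2.53. The probe set shared by 2 mitochondrial ribosomal protein genes read 8.16, 7.52 and 7.48 in callus and 4.99, 5.34 and 5.25 in leaf. It rose 5.76-fold (limma adjusted p = 7.77e-10), above the 3.71-fold of ccmFN1. The ATP synthase had 1 of 2 called higher, at 2.003, with 8.95, 8.89 and 9.03 in callus and 6.73, 7.08 and 7.05 in leaf, while the other stood at 0.38. The single probe set of complex III, the cytochrome bc1 complex, was called higher at 1.55. That of complex IV stood at 0.77, and the 2 of complex I at 0.11 and 0.22.

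Chromosome 2 loci with a probe set of their own that lie between the loci on these shared probe sets numbered 22. Of these, 1 was called higher, AT2G07708 at a log2 fold change of 1.03, and it was not called without callus replicate 1 or leaf replicate 1 (0.92 at the smallest). The share called, 4.55%, compares with 6.63% of all genes below the median level, and these loci were dim, with median levels of 4.23 in callus and 4.15 in leaf. With the adjusted p alone 7 were higher (31.8%), against 34.4% of all genes. The median over these loci was 0.07 on the log2 scale. No test of their difference from the shared probe sets was made. Whether the shared signal came from the mitochondria or from the nuclear copy cannot be told apart with these probes.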
